A study of Homo sapiens with 9 samples.

Results

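RNA-Seq of PC3 xenografts was used to follow 48 genes of epithelial junctions and of the epithelial-mesenchymal transition (EMT) in tumors from mice given vehicle or an antibody-drug conjugate. The genes were chosen with earlier results of these data known, and were taken by symbol. Of these, 40 are epithelial genes (junction proteins, polarity proteins, keratins, surface proteases and the transcription and splicing factors that maintain them). The other 8 are EMT transcription factors or mesenchymal genes. All 48 were present among the 16008 genes in both deposited count tables, and all 48 passed the filter on low counts in every comparison. PC3 is an androgen-independent human prostate cancer line derived from a bone metastasis, and here it is a single line grown under the skin of male NSG mice, which lack T, B and NK cells but keep mouse stroma, vessels and macrophages. Per the series record, PC3 cells were injected in Matrigel into mice aged 11 weeks, and once tumors reached 90 mm3 the mice received PBS, or trastuzumab deruxtecan (T-DXd) or patritumab deruxtecan (P-DXd) at 5 mg/kg, weekly for 5 cycles until harvest at the endpoint. The methods of the study give another age, starting volume and number of cycles for this dose. The antibody of T-DXd binds HER2 and that of P-DXd binds HER3; the payload of each, deruxtecan, inhibits topoisomerase I. There were 3 libraries each titled PBS, PDXd and TDXd; the treatment field names the opposite conjugate for all 6 treated libraries, so the groups are called PDXd-titled and TDXd-titled. The names of the deposited tables and columns follow the titles, but which conjugate each group received is unresolved.

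Libraries held between 54481702 and 125538606 counts, and PBS libraries were the deepest. The labels do not say that libraries of a group came from separate mice, so p-values measure only the spread between these libraries. Levels are given as CPM, counts scaled to TMM-adjusted library sizes. A gene was called at an adjusted p at or below 0.05 (edgeR quasi-likelihood test, Benjamini-Hochberg) and a fold change of at least 1.5, and "rose" and "fell" are used of such genes. PBS replicate 1 and PDXd-titled replicate 2 stood apart. The summed level of 11 skeletal muscle genes was between 3.501 and 51.5 CPM in PBS libraries, 4526 CPM in PDXd-titled replicate 2 and between 76.83 and 261.1 CPM in the other treated libraries. All 11 rose in treated tumors (median log2 fold change 5.53), where 15.2% of all genes rose. The part of muscle in the values of the 48 genes was not tested. The keratins KRT5, KRT6A and KRT14 reached 510.7, 1298 and 422.1 CPM in PBS replicate 1, above each other library.

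As background, epithelial cells are held together by adherens junctions built on E-cadherin (CDH1), by tight junctions built on claudins, occludin and their scaffolds, and by desmosomes anchored to keratin filaments. In EMT, the zinc finger and helix-loop-helix repressors SNAI1, SNAI2, ZEB1, ZEB2 and TWIST1 can silence such genes, often through E-box motifs near their promoters, while vimentin, N-cadherin and fibronectin come to be expressed. GRHL, OVOL, ELF3 and ESRP proteins act in the opposite direction, as transcription or splicing factors that maintain the epithelial state.

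To show the sequence these repressors are known to read, RefSeq promoter windows (GRCh38.p14) of 26 of the 48 genes were searched for CAGGTG and its reverse complement CACCTG, the E-box bound by Snail and ZEB proteins, in the 250 bases before the annotated start. The motif was present in 10 of the 21 epithelial genes with a window, and in 17.5% of all 35116 windows of that length. It was present in 4 of the 13 matched epithelial genes that rose in treated tumors (30.8%) and in 6 of the 8 that were not called (75%). A motif of the GRHL proteins, AACNGGTT or its reverse complement AACCNGTT, was in 1 of the 21 (CGN) and in 1.49% of all windows. These matches describe the letters in the windows and are not binding sites. The 4 windows of genes that rose and hold the E-box are shown, followed by those of CLDN1 and CLDN4, tight junction genes that rose and have no match here, in the direction of the gene and with the E-box in capitals. They lie at chr19:6464021-6464270 and chr5:69492297-69492546, chr1:202010337-202010586 and chr1:156060910-156061159 (plus strand), chr3:190322447-190322696 (minus strand) and chr7:73830746-73830995 (plus strand).
CRB3: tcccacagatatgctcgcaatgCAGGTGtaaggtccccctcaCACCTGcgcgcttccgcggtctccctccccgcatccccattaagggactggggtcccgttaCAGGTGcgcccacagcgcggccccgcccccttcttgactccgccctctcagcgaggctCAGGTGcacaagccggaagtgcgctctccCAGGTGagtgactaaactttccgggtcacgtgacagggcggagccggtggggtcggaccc
OCLN: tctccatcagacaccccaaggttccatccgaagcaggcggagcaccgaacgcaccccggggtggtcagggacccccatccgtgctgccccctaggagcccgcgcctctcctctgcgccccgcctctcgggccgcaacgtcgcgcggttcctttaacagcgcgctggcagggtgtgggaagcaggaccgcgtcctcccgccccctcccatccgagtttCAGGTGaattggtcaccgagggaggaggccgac
ELF3: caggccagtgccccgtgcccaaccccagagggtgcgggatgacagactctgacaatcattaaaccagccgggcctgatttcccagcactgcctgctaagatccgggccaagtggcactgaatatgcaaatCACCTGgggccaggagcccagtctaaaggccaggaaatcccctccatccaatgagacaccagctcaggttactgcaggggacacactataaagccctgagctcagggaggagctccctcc
RAB25: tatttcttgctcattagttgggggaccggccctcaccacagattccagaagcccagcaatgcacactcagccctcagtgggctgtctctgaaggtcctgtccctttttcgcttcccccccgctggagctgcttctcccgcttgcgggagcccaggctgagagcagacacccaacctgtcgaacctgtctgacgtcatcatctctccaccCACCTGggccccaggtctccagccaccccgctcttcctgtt
CLDN1: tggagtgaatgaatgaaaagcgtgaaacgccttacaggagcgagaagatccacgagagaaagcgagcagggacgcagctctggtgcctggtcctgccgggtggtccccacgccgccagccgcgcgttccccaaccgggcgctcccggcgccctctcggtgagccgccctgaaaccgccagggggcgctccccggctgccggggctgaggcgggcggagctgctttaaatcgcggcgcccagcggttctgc
CLDN4: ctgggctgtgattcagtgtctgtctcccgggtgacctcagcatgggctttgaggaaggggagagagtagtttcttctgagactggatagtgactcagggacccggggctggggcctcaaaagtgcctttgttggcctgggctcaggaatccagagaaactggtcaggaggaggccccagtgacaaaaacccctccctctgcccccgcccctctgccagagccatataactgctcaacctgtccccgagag

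The first question was how the epithelial genes differed between treated and vehicle tumors. In PDXd-titled xenografts, 18 of 40 rose and 0 fell, where 11.2% of all 14945 genes tested rose and 13.8% fell. In TDXd-titled xenografts 17 of 40 rose and 0 fell (13.1% and 15.5% of 14915 genes). When the 6 treated libraries were compared with PBS, 19 of 40 rose and 0 fell (15.2% and 17.1% of 15070 genes). The median log2 fold change of the 40 genes was 0.61, 0.56 and 0.57 in these comparisons, and that of all genes was -0.01, -0.02 and -0.01. The comparisons share the PBS libraries, so their agreement is not independent. The genes were also chosen with earlier results of these data known. Because that choice can itself raise the counts, no excess over the shares of all genes is read from them. Of the 8 EMT and mesenchymal genes, 3 fell in each comparison (SNAI1, SNAI2 and FN1); ZEB2 rose in each, and ZEB1 was called with all 6 treated libraries pooled. In PDXd-titled tumors, 11, 9, 11 and 8 epithelial genes were called without PBS replicate 2 or PDXd-titled replicate 1, 2 or 3. Calls over all genes tested there fell from 3742 to 2760, 2635, 2464 and 1857. In TDXd-titled tumors, 13, 9, 11 and 8 epithelial genes were called without PBS replicate 2 or TDXd-titled replicate 1, 2 or 3. Calls over all genes tested there fell from 4263 to 3693, 3081, 3018 and 2820. In both groups the number was 15 without PBS replicate 1 and 22 without PBS replicate 3. Of the EMT and mesenchymal genes, 2 rather than 4 were called in PDXd-titled tumors without PBS replicate 2, PDXd-titled replicate 2 or PDXd-titled replicate 3. Among epithelial genes, EPCAM, CLDN3, GRHL1, ELF3, ST14 and PRSS8 each lost the call in PDXd-titled tumors without PBS replicate 2 or any PDXd-titled library. The adjusted p then lay between 0.0563 (CLDN3) and 0.143 (ST14).

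**Figure D1:**
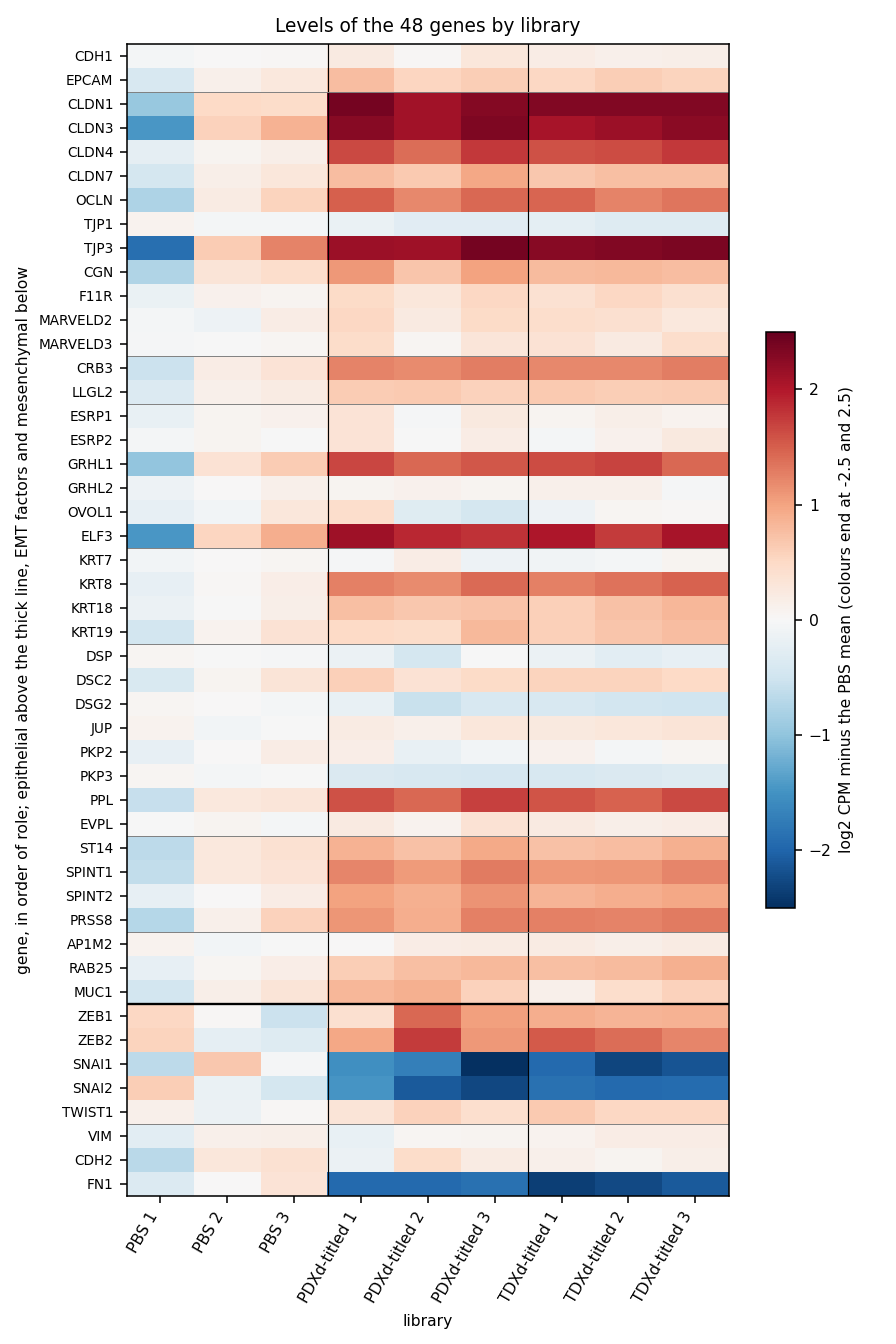
Heat map of the 48 genes (rows, by role) in 9 libraries (columns): log2 CPM minus the PBS mean, red for higher and blue for lower. CLDN1, CLDN3, OCLN, TJP3, GRHL1, ELF3 and PPL are red in the 6 treated columns and blue in PBS replicate 1, TJP1 is blue in the treated columns, and SNAI1, SNAI2 and FN1 are a deeper blue there.

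PBS replicate 1 was the lowest of the 9 libraries for 29 of the 40 epithelial genes, and the lowest of the PBS libraries for 32 of 40. The same library was the lowest of the 9 for 35.3% of all genes above 1 CPM. Without it, 15 of 40 epithelial genes rose in treated tumors and 0 fell (13.6% of 15205 genes rose), and their median log2 fold change was 0.40. CLDN7, CGN, LLGL2 and ST14 then came below the fold change minimum, with log2 fold changes of 0.54, 0.48, 0.46 and 0.50. The values without PBS replicate 1 are given below beside the genes it moved most.

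**Figure D2:**
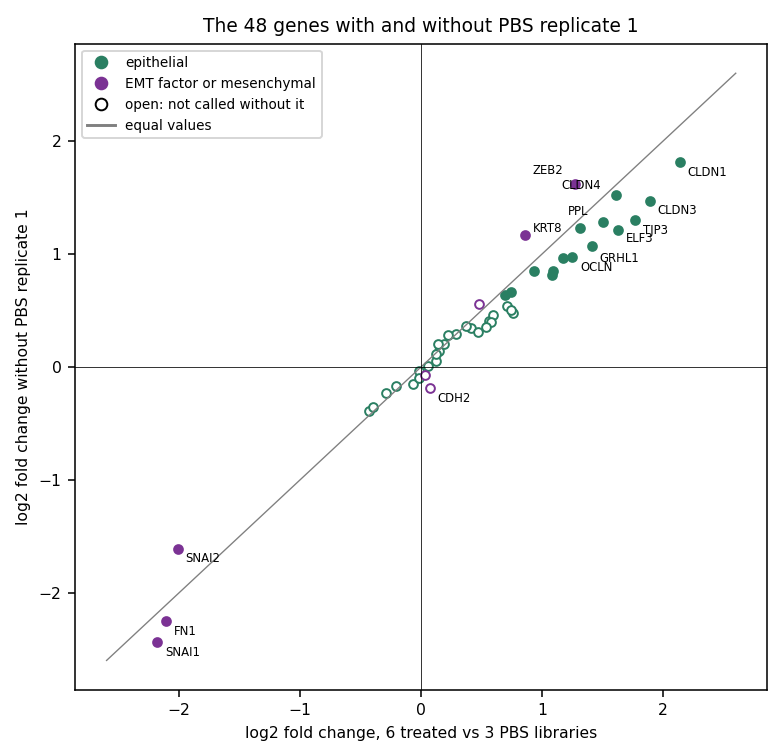
Log2 fold change of each of the 48 genes in treated against PBS libraries with all 9 libraries (x axis) and without PBS replicate 1 (y axis); filled points are called without it and the line marks equal values. Epithelial genes that rose lie below the line, with CLDN3 moving from 1.89 to 1.47 and TJP3 from 1.77 to 1.3, while ZEB2 lies above it (1.27 and 1.62).

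Neither adhesion molecule was called when the treated libraries were pooled. CDH1, which encodes E-cadherin, was 233.5, 243.2 and 247.5 CPM in PBS, 280.3, 245.5 and 293.9 CPM in PDXd-titled and 275.9, 263.9 and 265.5 CPM in TDXd-titled libraries. PDXd-titled replicate 2 lay within the PBS range, and the log2 fold change in treated libraries was 0.15 (SE 0.07, adjusted p 0.0905). EPCAM, an adhesion molecule of simple epithelia, was 272.6, 388.7 and 431.8 CPM in PBS, 610.8, 520.1 and 551.1 CPM in PDXd-titled and 510.8, 550.9 and 529.5 CPM in TDXd-titled libraries. Each treated library was above each PBS library. EPCAM was called in PDXd-titled tumors (log2 fold change 0.62, SE 0.17, adjusted p 0.032) and came below the fold change minimum in TDXd-titled tumors (0.52, SE 0.16, adjusted p 0.0376) and in all treated tumors (0.56, SE 0.12, adjusted p 0.00314). The last value was 0.41 without PBS replicate 1, and EPCAM was called without PBS replicate 2 (0.61) or PBS replicate 3 (0.70). In PDXd-titled tumors the EPCAM call was lost on leaving out any library other than PBS replicate 3.

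Of 11 tight junction genes, 7 rose in treated tumors: CLDN1, CLDN3, CLDN4, CLDN7, OCLN, TJP3 and CGN. CLDN1, a sealing claudin, was 58.42, 159.5 and 154.7 CPM in PBS, 589.2, 486.1 and 557.7 CPM in PDXd-titled and 561.1, 562.2 and 560 CPM in TDXd-titled libraries. The groups were far apart, with PBS replicate 1 lowest. Its log2 fold change was 2.13 (SE 0.36, adjusted p 0.00625) in PDXd-titled and 2.16 (SE 0.35, adjusted p 0.00417) in TDXd-titled tumors, and 1.81 in all treated tumors without PBS replicate 1. CLDN3, a second claudin, was 2.314, 9.579 and 11.75 CPM in PBS, 31.26, 27.62 and 32.55 CPM in PDXd-titled and 26.8, 28.32 and 30.74 CPM in TDXd-titled libraries. Treated libraries were all above PBS, but PBS replicate 1 was far below the other PBS libraries. The log2 fold change of CLDN3 in all treated tumors was 1.89 (SE 0.38, adjusted p 0.00191), and 1.47 without PBS replicate 1. TJP3, the scaffold ZO-3, was 1.524, 8.802 and 13.47 CPM in PBS, 25.18, 24.55 and 29.86 CPM in PDXd-titled and 27.56, 28.31 and 29.27 CPM in TDXd-titled libraries. It was called in all treated tumors (1.77, SE 0.48, adjusted p 0.00912) but not in PDXd-titled (adjusted p 0.0708) or TDXd-titled tumors (adjusted p 0.0562) alone; without PBS replicate 1 it was called in both, at 1.25 and 1.34.

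CLDN4, a claudin that also serves as a toxin receptor, lay between 181 and 233.9 CPM in PBS and between 554.6 and 723.5 CPM in treated libraries (1.61, SE 0.11, adjusted p 4.07e-06; 1.52 without PBS replicate 1). OCLN, the membrane protein occludin, lay between 7.51 and 18.74 CPM in PBS and between 29.47 and 35.82 CPM in treated libraries (1.25, SE 0.23, adjusted p 0.000924). CLDN7 and CGN (cingulin, a cytoplasmic plaque protein) rose by 0.71 and 0.76 on the log2 scale (adjusted p 0.00141 and 0.0117), and CGN was not called in PDXd-titled (adjusted p 0.059) or TDXd-titled tumors (adjusted p 0.0846) alone. F11R (JAM-A), MARVELD2 (tricellulin) and MARVELD3 were 0.41, 0.37 and 0.29 higher on the log2 scale with adjusted p of 0.00155, 0.00855 and 0.0225, below the fold change minimum. TJP1, the scaffold ZO-1, had the other sign. It lay between 140.1 and 155.3 CPM in PBS and between 116.1 and 130 CPM in treated libraries, a log2 fold change of -0.29 (SE 0.07, adjusted p 0.00327) that is below the minimum. CLDN7 and MARVELD3 overlap other listed genes (ELP5 and PHLPP2), and whether strand was used in counting is not stated, so reads of such pairs could be shared. The same limit holds for JUP (with HAP1, EIF1, KRT17 and GAST), EVPL (with CDK3), ESRP2 (with NFATC3) and KRT7 (with KRT86).

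**Figure D3:**
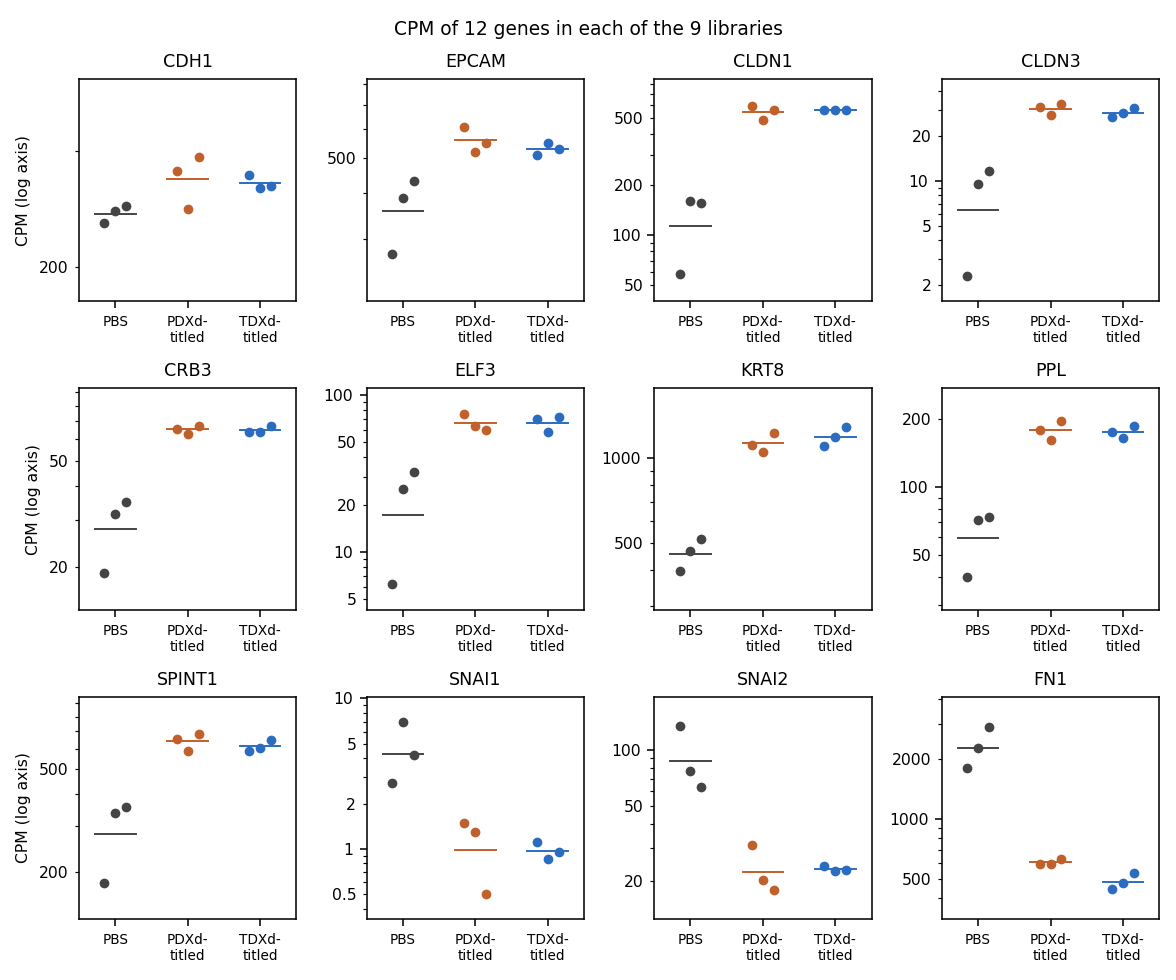
CPM (log axis) of 12 genes in each library; points are libraries and lines are geometric means of the 3 libraries of a group. The treated libraries lie above PBS for CLDN1, CLDN3, CRB3, ELF3, KRT8, PPL and SPINT1 and below it for SNAI1, SNAI2 and FN1, and CDH1 overlaps.

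Both polarity genes rose. CRB3, the epithelial Crumbs protein of the apical membrane, was 19.06, 31.67 and 35.04 CPM in PBS, 65.74, 63.08 and 67.52 CPM in PDXd-titled and 63.76, 63.84 and 67.37 CPM in TDXd-titled libraries. Treated libraries were close to one another and above PBS (log2 fold change 1.17, SE 0.15, adjusted p 0.000129; 0.96 without PBS replicate 1). CRB3, whose promoter window holds 5 E-box matches, overlaps DENND1C and SLC25A23 in the tables. LLGL2, a basolateral polarity protein, was 43.34, 59.97 and 62.86 CPM in PBS, 85.43, 86.66 and 81.09 CPM in PDXd-titled and 85.62, 83.35 and 85.23 CPM in TDXd-titled libraries. Its groups did not overlap, and its log2 fold change of 0.59 (SE 0.10, adjusted p 0.000691) was just above the minimum; besides PBS replicate 1, leaving out PDXd-titled replicate 2 brought it to 0.58 and ended the call.

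Of 6 epithelial regulators, 2 rose. GRHL1, a grainyhead-like activator of junction genes, was 2.437, 6.199 and 7.534 CPM in PBS, 15.54, 13.11 and 14.34 CPM in PDXd-titled and 15, 15.74 and 13.2 CPM in TDXd-titled libraries. Its treated libraries were all above PBS (log2 fold change 1.41, SE 0.28, adjusted p 0.0016; 1.07 without PBS replicate 1). ELF3, an epithelial ETS factor, was 6.264, 25.05 and 32.18 CPM in PBS, 75.11, 63.32 and 59.94 CPM in PDXd-titled and 69.94, 57.95 and 71.85 CPM in TDXd-titled libraries. PBS replicate 1 was again far below the other PBS libraries, and the log2 fold change was 1.63 (SE 0.38, adjusted p 0.00438) with it and 1.21 without it. The other 4 did not pass the test. GRHL2, a related activator of CDH1 and claudin genes, was between 72.6 and 86.27 CPM in PBS and between 77.22 and 86.75 CPM in treated libraries (0.06, SE 0.07, adjusted p 0.505). ESRP1 and ESRP2, which direct epithelial splicing, were each 0.12 higher on the log2 scale (adjusted p 0.285 and 0.3), and OVOL1, a repressor of ZEB genes, was at -0.07 (adjusted p 0.789).

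The simple keratins KRT8 and KRT18, which pair in filaments, both rose. KRT8 was 398.6, 469.7 and 514.6 CPM in PBS, 1104, 1044 and 1225 CPM in PDXd-titled and 1100, 1179 and 1279 CPM in TDXd-titled libraries. KRT18 was 273.8, 298.8 and 334.6 CPM in PBS, 506.9, 479.1 and 495.2 CPM in PDXd-titled and 452.4, 500.2 and 534.3 CPM in TDXd-titled libraries. Every treated library was above every PBS library for both genes. The log2 fold change was 1.31 (SE 0.10, adjusted p 5.37e-06) for KRT8 and 0.69 (SE 0.08, adjusted p 5.63e-05) for KRT18, and 1.23 and 0.64 without PBS replicate 1. The tables place KRT8 at chromosome 12, 53290977 to 53343738, and KRT18 at 53342655 to 53346685, on a build they do not name; the 2 genes overlap and both have many pseudogenes, so the split of reads between them is uncertain. KRT19 was between 455 and 806.7 CPM in PBS and between 856.6 and 1091 CPM in treated libraries (0.58, SE 0.16, adjusted p 0.00864), just below the minimum, which it passed without PBS replicate 2 or 3, PDXd-titled replicate 1 or 2, or TDXd-titled replicate 1 (0.59 to 0.78). KRT7 was between 1064 and 1150 CPM in PBS and between 1018 and 1262 CPM in treated libraries (-0.02, SE 0.08, adjusted p 0.817).

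Of 8 desmosome and plakin genes, 1 rose in treated tumors, PPL, which encodes periplakin, a linker of keratin filaments to the cell cortex. PPL was 40.11, 71.6 and 73.97 CPM in PBS, 179, 162.2 and 196 CPM in PDXd-titled and 176.5, 164.8 and 186.5 CPM in TDXd-titled libraries. Its treated libraries were all above PBS (log2 fold change 1.5, SE 0.17, adjusted p 5.36e-05; 1.28 without PBS replicate 1), and it overlaps SEC14L5. The related plakin EVPL (envoplakin) had a log2 fold change of 0.19 (adjusted p 0.0421). DSG2, the desmosomal cadherin desmoglein 2, was between 139.2 and 148.7 CPM in PBS and between 98.6 and 127.2 CPM in treated libraries, and PKP3, the plaque protein plakophilin 3, was between 268 and 287.2 CPM and between 206.7 and 221.7 CPM. Both were lower in each treated library than in each PBS library, at -0.43 (SE 0.08, adjusted p 0.00119) and -0.40 on the log2 scale (SE 0.06, adjusted p 0.000198), below the minimum. DSP (desmoplakin), DSC2, JUP (plakoglobin) and PKP2 were at -0.21, 0.47, 0.22 and -0.02 on the log2 scale (adjusted p 0.0634, 0.0101, 0.0156 and 0.877). On adjusted p alone, with no fold minimum, 27 epithelial genes were higher in treated tumors and 3 lower (TJP1, DSG2 and PKP3), where 55.7% of all genes differed in either direction.

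In the matriptase system, the membrane protease ST14 (matriptase) and its partner prostasin (PRSS8) are held in check by the inhibitors SPINT1 and SPINT2. With the treated libraries pooled, 4 of these 4 genes rose, where 15.2% of all genes rose. The 4 were chosen with earlier results of these data known, so nothing particular to this system is read from the count. SPINT1 was 181.4, 337 and 355.5 CPM in PBS, 651.5, 586 and 687 CPM in PDXd-titled and 589.8, 602.4 and 650.6 CPM in TDXd-titled libraries. SPINT2 was 309.8, 358.3 and 404.4 CPM in PBS, 711.4, 659.4 and 778.4 CPM in PDXd-titled and 636.7, 666.5 and 697.2 CPM in TDXd-titled libraries. PRSS8 was 25.9, 46.75 and 63.62 CPM in PBS, 91.22, 80.22 and 102.2 CPM in PDXd-titled and 102, 101 and 104.8 CPM in TDXd-titled libraries. For each of them the treated libraries were all above PBS, and PBS replicate 1 was the lowest. The log2 fold changes in all treated tumors were 1.09 for SPINT1 (SE 0.18, adjusted p 0.000496), 0.93 for SPINT2 (SE 0.10, adjusted p 2.86e-05) and 1.08 for PRSS8 (SE 0.22, adjusted p 0.00202), and 0.85, 0.85 and 0.81 without PBS replicate 1. ST14 was between 299.3 and 613.8 CPM in PBS and between 777.8 and 911 CPM in treated libraries (0.74, SE 0.18, adjusted p 0.00572). ST14 was not called in TDXd-titled tumors (adjusted p 0.0524), and with the treated libraries pooled it came below the fold change minimum without PBS replicate 1. Its call in PDXd-titled tumors (adjusted p 0.0488) was lost on leaving out any library other than PBS replicate 3. The PRSS8 call there was lost without PBS replicate 2 or any PDXd-titled library.

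Of 3 trafficking and mucin genes, RAB25, a small GTPase of apical recycling, rose. RAB25 was 32.95, 39.35 and 42.73 CPM in PBS, 58.05, 64.58 and 66.79 CPM in PDXd-titled and 63.81, 65.61 and 71.07 CPM in TDXd-titled libraries. The groups did not overlap (log2 fold change 0.74, SE 0.09, adjusted p 8.3e-05; 0.66 without PBS replicate 1). AP1M2, the epithelial clathrin adaptor subunit, and MUC1, a membrane mucin, were 0.14 and 0.54 higher on the log2 scale (adjusted p 0.123 and 0.0616); MUC1 and, among desmosome genes, DSC2 were called without PBS replicate 3 (0.71 and 0.63), and MUC1 without TDXd-titled replicate 1 (0.62).

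The next question was whether the EMT factors moved against the epithelial genes, and some fell while others rose. The Snail genes fell. SNAI2 (Slug) was 133.1, 77.09 and 63.48 CPM in PBS, 31.09, 20.22 and 17.91 CPM in PDXd-titled and 23.91, 22.42 and 22.74 CPM in TDXd-titled libraries. It was highest in PBS replicate 1, the library lowest for most epithelial genes, and the treated libraries were all below PBS (log2 fold change -2.01, SE 0.22, adjusted p 3.89e-05; -1.61 without PBS replicate 1). SNAI1 (Snail) was 2.737, 6.922 and 4.202 CPM in PBS, 1.474, 1.292 and 0.5036 CPM in PDXd-titled and 1.106, 0.852 and 0.9487 CPM in TDXd-titled libraries. All treated libraries were below PBS (-2.18, SE 0.33, adjusted p 0.00032; -2.44 without PBS replicate 1). In PDXd-titled tumors alone, the call of SNAI1 was lost without PBS replicate 2 (adjusted p 0.0568), PDXd-titled replicate 2 (0.0536) or PDXd-titled replicate 3 (0.0554).

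The ZEB genes had the opposite sign. ZEB2 was 52.63, 30.59 and 28.68 CPM in PBS, 70.07, 120.5 and 75.65 CPM in PDXd-titled and 104, 94.08 and 83.56 CPM in TDXd-titled libraries. ZEB1 was 4.862, 3.442 and 2.331 CPM in PBS, 4.517, 9.212 and 6.958 CPM in PDXd-titled and 6.347, 6.1 and 6.212 CPM in TDXd-titled libraries. Each treated library was above PBS for ZEB2, while for ZEB1 PDXd-titled replicate 1 lay within the PBS range. In all treated tumors the log2 fold change was 1.27 for ZEB2 (SE 0.23, adjusted p 0.000936) and 0.86 for ZEB1 (SE 0.26, adjusted p 0.0162). The ZEB1 call was lost without PBS replicate 2 (adjusted p 0.0522) or PBS replicate 3 (0.0579), and ZEB1 was not called in either treated group alone (adjusted p 0.0765 and 0.0547), though it was in both without PBS replicate 1 (1.25 and 1.09). The call of ZEB2 in PDXd-titled tumors was lost without PBS replicate 2 (adjusted p 0.0655), PDXd-titled replicate 2 (0.0579) or PDXd-titled replicate 3 (0.0528). TWIST1 was 26.93, 22.27 and 25.42 CPM in PBS, 31.19, 36.81 and 33.4 CPM in PDXd-titled and 39.2, 35.34 and 35.44 CPM in TDXd-titled libraries. It was higher in each treated library than in PBS (0.48, SE 0.09, adjusted p 0.00151), below the fold change minimum.

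A gene that PC3 cells are known to have lost was measured in the same libraries. CTNNA1 (alpha-catenin), which links E-cadherin to actin, is reported as homozygously deleted in PC3, in a deletion that need not span the whole gene. CTNNA1 was 19.59, 13.22 and 11.55 CPM in PBS, 17.47, 28.27 and 20.95 CPM in PDXd-titled and 24.32, 25.37 and 24.27 CPM in TDXd-titled libraries. CTNNB1 (beta-catenin), its partner in the junction, lay between 430.9 and 540.1 CPM and was not called (adjusted p 0.262). PBS replicate 1 was the highest PBS library for ZEB1, ZEB2 and CTNNA1, and PDXd-titled replicate 2, the library with the highest muscle sum, was the highest of all for the same genes. CTNNA1 rose in treated tumors (0.64 on the log2 scale, SE 0.19, adjusted p 0.0142). It was not called in PDXd-titled tumors alone (0.58, adjusted p 0.114), where replicate 1 lay within the PBS range. The summed level of 13 fibroblast genes was between 1130 and 2147 CPM in PBS, highest in replicate 1, between 1347 and 2340 CPM in PDXd-titled, lowest in replicate 1, and between 2268 and 2418 CPM in TDXd-titled libraries. COL1A1 made up much of that sum and was not called (0.15, adjusted p 0.595). Of the 12 fibroblast genes tested, 7 rose and 0 fell in treated tumors (median log2 fold change 0.89), where 15.2% of all genes rose and 17.1% fell. Among the 7 were MMP2, POSTN and COL3A1 at 1.79, 1.58 and 1.37. In PDXd-titled tumors alone 2 of the 12 rose, and in TDXd-titled tumors alone 6 rose. The methods do not state whether mouse reads were removed, and the part of mouse cells in the ZEB1, ZEB2 and TWIST1 values was not tested. In bulk tissue, fewer cells of a type and less RNA per cell cannot be told apart.

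**Figure D4:**
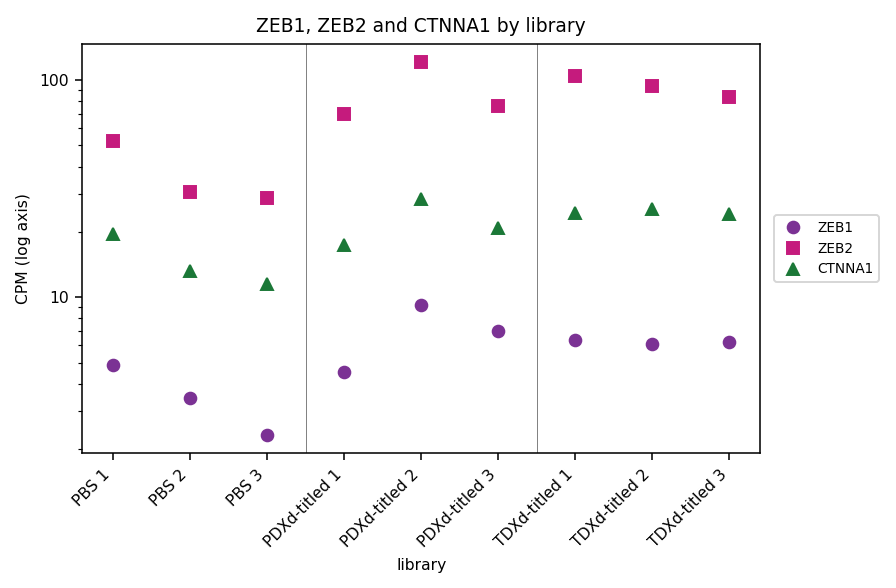
CPM (log axis) of ZEB1, ZEB2 and CTNNA1 in the 9 libraries. All 3 are higher in PBS replicate 1 than in the other PBS libraries and peak in PDXd-titled replicate 2 (9.212, 120.5 and 28.27 CPM).

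The 3 mesenchymal genes differed from one another. FN1, the matrix protein fibronectin, was 1806, 2280 and 2880 CPM in PBS, 592.4, 591.2 and 628.9 CPM in PDXd-titled and 446.3, 477.4 and 533.9 CPM in TDXd-titled libraries. The 3 groups did not overlap, and FN1 fell in both treated groups (log2 fold change -1.95, SE 0.17, adjusted p 0.00151, and -2.27, SE 0.18, adjusted p 0.000508). VIM (vimentin) was 262.2, 347.7 and 349 CPM in PBS, 277.7, 329.7 and 331.3 CPM in PDXd-titled and 336, 358.3 and 358.8 CPM in TDXd-titled libraries. CDH2 (N-cadherin) was 30.2, 59.3 and 63.37 CPM in PBS, 43.9, 66.89 and 55.88 CPM in PDXd-titled and 53.18, 50.89 and 53.37 CPM in TDXd-titled libraries. The groups overlapped for both, with log2 fold changes in all treated tumors of 0.03 for VIM (SE 0.11, adjusted p 0.796) and 0.07 for CDH2 (SE 0.20, adjusted p 0.798).

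**Figure D5:**
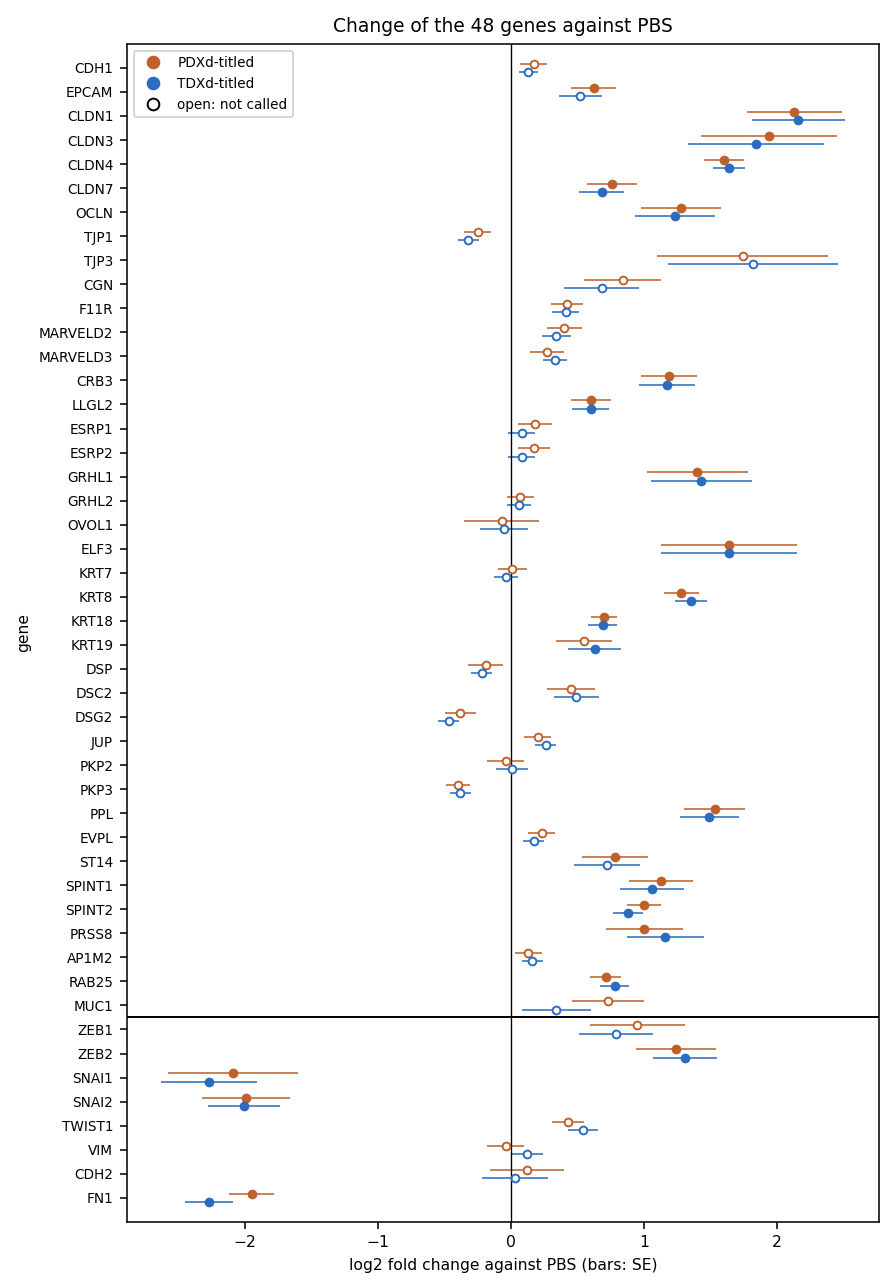
Log2 fold change against PBS (x axis, bars are SE) of each of the 48 genes in PDXd-titled and TDXd-titled tumors; filled points are called. Values of the 2 treated groups lie side by side for each gene, from -2.27 for SNAI1 and FN1 to 2.16 for CLDN1.

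To compare levels between genes, CPM were divided by the merged exon length of the coding transcripts, known for all 48. In PBS tumors KRT7 (655 to 708 CPM per kb) was the highest, above KRT19 (310 to 550) and FN1 (201 to 320), and the ranges of the last 2 overlapped. In treated tumors FN1 was between 49.6 and 69.9 CPM per kb, below KRT8 (202 to 248) and CLDN4 (132 to 173). Among EMT factors in PBS, SNAI2 (26.7 to 56.1 CPM per kb) was above TWIST1 (13.7 to 16.5), SNAI1 (1.61 to 4.06) and ZEB2 (1.83 to 3.36), whose ranges overlap, and ZEB1 (0.359 to 0.748). In treated tumors TWIST1 (19.1 to 24 CPM per kb) was above SNAI2 (7.54 to 13.1), and ZEB2 (4.48 to 7.7) was above SNAI1 (0.295 to 0.865).

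The last question was whether the treated groups differed from each other, and 0 of 48 genes were called, where 0.0273% of 14653 genes were. DESeq2 also called 0 of the 48. At an unadjusted p below 0.05 there was 1 gene of 48, FN1, where 3.69% of all genes passed. FN1 was 0.31 higher on the log2 scale in PDXd-titled than in TDXd-titled tumors (SE 0.08, unadjusted p 0.00298, adjusted p 1), and each PDXd-titled library was above each TDXd-titled library. The other 47 log2 differences ranged from -0.17 for PRSS8 and VIM to 0.38 for MUC1 (SE 0.19). For CLDN1, KRT8, SNAI2 and ZEB2 the differences were -0.04 (SE 0.08), -0.08 (SE 0.09), 0.00 (SE 0.17) and -0.08 (SE 0.18).

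Other genes of the same structures were counted from lists, also chosen with earlier results of these data known. These counts stand beside the 15.2% of all genes that rose and the 17.1% that fell in treated tumors, and nothing particular to a list is read from them. Of 13 other adherens junction genes tested, 5 rose and 2 fell in treated tumors. ARVCF, a p120-catenin relative, rose by 1.12 on the log2 scale (adjusted p 0.000184). NECTIN1 and NECTIN3, adhesion molecules of the immunoglobulin family, fell (-1.24 and -0.62 on the log2 scale, adjusted p 0.000353 and 0.000179). Of 32 other tight junction genes, 7 rose and 3 fell, with ILDR1, a protein of tricellular contacts, at 2.55 (adjusted p 0.00642), AMOT (angiomotin) at 2.51 (adjusted p 6.27e-05), and JAM3 and CLDN11 at -1.04 and -0.83 (adjusted p 0.00609 and 0.0112), all 4 below 5 CPM in every library; CLDN11 was not called without PBS replicate 1 (-0.56, adjusted p 0.0577). Of 17 other desmosome and keratin genes, 4 rose and 5 fell. KRT23 rose from between 0.6825 and 1.524 CPM to between 7.569 and 15.27 CPM (3.40, SE 0.31, adjusted p 1.34e-05), DSC1 stayed below 1 CPM in each library (1.99, adjusted p 0.00302), and DSG3 and KRT6A, both highest in PBS replicate 1, fell (-3.78 and -3.21, adjusted p 0.00159 and 0.000241). Both remained called when PBS replicate 1 was left out, at -1.57 and -1.91. DSG3 was 8.712 CPM in PBS replicate 1 and at most 0.7769 CPM in every other library. Of 10 gap junction connexins, 1 rose (GJA5, 1.90, adjusted p 0.00427) and 4 fell, among them GJC1 (-1.33, SE 0.10, adjusted p 4.98e-06).

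Among 14 other epithelial regulators, 5 rose and 3 fell, to be read against the same 15.2% and 17.1% of all genes. SPDEF, an ETS factor of secretory epithelia, was 1.936, 19.06 and 23.18 CPM in PBS and between 44.49 and 57.82 CPM in treated libraries. Its log2 fold change was 1.81 (SE 0.54, adjusted p 0.0155), and 1.3 without PBS replicate 1. SPDEF was not called in PDXd-titled (adjusted p 0.0913) or TDXd-titled tumors (adjusted p 0.0797) alone. FOXA1, a pioneer factor of luminal prostate cells, rose by 1.37 (adjusted p 0.000292). FOXA2 and PRDM1 fell (-1.72 and -1.54, adjusted p 0.00243 and 4.63e-06). Of 10 other surface protease genes, 4 rose and 2 fell. Among those that rose were TMPRSS13 (1.59, adjusted p 0.000888) and HGF, the growth factor that such proteases activate (1.02, adjusted p 0.00492). The activator HGFAC (-2.69, adjusted p 0.000859) and the substrate CDCP1 (-0.68, adjusted p 2.2e-05) fell. HGFAC was at most 0.4817 CPM and HGF at most 2.821 CPM in every library. Of 16 other EMT regulators, 4 rose, with ZNF521 at 1.63 and TCF4 at 1.00 (adjusted p 0.0137 and 4.73e-05), and 2 fell, HMGA2 at -1.76 and ETS1 at -1.06 (adjusted p 2.34e-06 and 6.13e-05). HMGA2, a chromatin protein that can induce SNAI1, lay between 171.6 and 196.5 CPM in PBS and between 46.02 and 64.25 CPM in treated libraries. ZNF521 and TCF4 were highest in PDXd-titled replicate 2 and, within PBS, in replicate 1, as ZEB1 and ZEB2 were, and ZNF521 was at 2.45 without PBS replicate 1. Of 20 other mesenchymal genes, 5 rose and 4 fell. LOXL2, a matrix cross-linking enzyme, fell (-1.78, adjusted p 2.95e-05), CTGF rose by 1.68 (adjusted p 6.19e-06), and TPM2 was 1473 CPM in PDXd-titled replicate 2 and at most 119.9 CPM elsewhere (3.43, SE 1.2, adjusted p 0.0317).

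Markers of mouse or skin cells that could add reads to these genes were followed as summed CPM. For 10 keratinocyte genes the sum was 985.5 CPM in PBS replicate 1, between 198.3 and 201.8 CPM in the other PBS libraries, and between 127.8 and 228.4 CPM in treated libraries. KRT1, LOR, DSG1, TGM3 and KRTDAP of that list of 15 were not used here. KRT5 and KRT14, both highest in PBS replicate 1, set that sum. They fell in treated tumors (-1.37 and -2.43 on the log2 scale). Without PBS replicate 1 the values were 0.01, not called, and -0.83. Of the 10 genes, 4 rose (KRT2, CALML5, DSC1 and SBSN, 1.4 to 2.67), where 15.2% of all genes rose and 17.1% fell. These 4 were at most 2.38 CPM in every library, and the median log2 fold change of the 10 was 0.37. The part of skin cells in the values of the 48 genes was not tested. The sum of 9 macrophage genes was between 6.476 and 9.315 CPM in PBS and between 15.18 and 27.27 CPM in treated libraries, and 5 of the 8 tested rose and 1 fell. The sum of 7 endothelial genes was between 5.7 and 12.66 CPM in PBS and between 7.213 and 12.48 CPM in treated libraries, and 1 of 7 rose and 0 fell.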

How the data were processed

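RNA-Seq was performed on 9 PC3 xenograft libraries, 3 per group. Per the labels and methods, the authors used Cutadapt for trimming, STAR for alignment and featureCounts for counting, and deposited raw counts per gene in 2 tables with the same PBS columns. Whether mouse reads were removed or strand was used is not stated. The methods name GRCh38, but gene coordinates in the tables are on another build that is not named. Columns of per-sample values left unused numbered 0. Replicates differed by more than sampling noise (chi-square per gene), so all 9 were counted.

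Counts were tested in R 4.3.3 with the quasi-likelihood F test of edgeR 4.0.16 (two-sided) after TMM normalization and filterByExpr, with Benjamini-Hochberg adjustment over all genes tested. Calls required an adjusted p of 0.05 or less and a fold change of 1.5 or more. Each treated group was compared with PBS and with the other treated group on 6 libraries, and all treated libraries with PBS on 9. SE is the log2 fold change divided by the square root of F. The method was tested on simulated counts. Heat map values use a prior count of 2. Exon lengths were from GENCODE and promoter windows from RefSeq.

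The members and all lists were chosen with earlier results of these data known. Described in full were CDH1, EPCAM, VIM, CDH2, FN1, ZEB1, ZEB2, SNAI1, SNAI2 and TWIST1 and, for each role, up to 3 genes with the largest change among those called in all treated libraries; from other lists, up to 2 rising and 2 falling genes; CTNNA1 was named as a check of PC3. Some genes that this rule names are not reported here. Alternatives were DESeq2 1.42.0, RLE size factors, library totals alone, no filter, a minimum of 10 counts per library, no fold minimum, a joint fit of all 9 libraries, and each library left out in turn; a block on the first digit of the title codes was added after seeing the data.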

Additional observations from a re-analysis of the deposited data

How the results depend on the processing

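All members passed the filter on low counts, and the effect of depth on their calls was not tested. The limits are 3 libraries a group, the unresolved conjugate of each treated group, and PBS replicate 1. Without 1 library at a time, the number of epithelial genes called ranged from 8 to 22 of 40 in PDXd-titled and from 8 to 22 in TDXd-titled tumors, lowest without replicate 3 of the treated group, and from 15 to 23 in all treated tumors, lowest without PBS replicate 1. The number of EMT and mesenchymal genes called then ranged from 2 to 5, from 4 to 6 and from 4 to 5 of 8. Calls over all genes tested ranged from 1857 to 3936, from 2820 to 4641 and from 4204 to 5239. With no fold change minimum, 30 epithelial genes were called in all treated tumors. DESeq2, RLE size factors, library totals alone, no filter, the stricter filter and the joint fit of all 9 libraries each called between 15 and 21 epithelial genes in each comparison with PBS for which they were run. Log2 fold changes of CDH2 and VIM, which were not called, changed sign when 1 library was left out. That of CDH2 ranged from -0.15 to 0.29 in PDXd-titled, from -0.24 to 0.21 in TDXd-titled and from -0.19 to 0.25 in all treated tumors, each lowest without PBS replicate 1, and that of VIM from -0.16 to 0.04, from 0 to 0.18 and from -0.07 to 0.10. The cause was not tested. No other log2 fold change of a gene described in full changed sign under these alternatives. No paired analysis was possible because the replicate numbers are only accession order. The codes in the titles hold a first digit, 1 or 2, that occurs in every group and whose meaning the labels do not give; with it as a block, an alternative chosen after seeing the data, 18, 14 and 18 epithelial and 4, 5 and 5 EMT and mesenchymal genes were called in PDXd-titled, TDXd-titled and all treated tumors. ELF3 lost its call in TDXd-titled tumors and LLGL2 in TDXd-titled and all treated tumors (0.56 and 0.58), ZEB1 was called in TDXd-titled tumors (0.99), and CDH2 there was at -0.03. Values of genes from the other lists without PBS replicate 1 were also added after seeing the data.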
